A study of Homo sapiens with 8 samples.

Results

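To explore how chromatin opening at the genes of activator protein 1 (AP-1) varied with matrix stiffness, the peaks in and around 10 genes (JUN, JUNB, JUND, FOS, FOSB, FOSL1, FOSL2, ATF3, BATF3 and MAFF) were examined. The genes were chosen by name, as 10 of 20136 protein-coding genes, and a window of the gene body with 50 kb on each side was taken for each. The windows formed 9 distinct regions of 1105 kb, because those of ATF3 and BATF3 joined. Consensus sites were made by merging peaks that shared 1 bp or more across the lists, with 2 or more libraries required for each. The windows held 105 of the 75501 consensus sites, of which 4 lay in the windows of both ATF3 and BATF3.

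The data were 8 ATAC-seq (assay for transposase-accessible chromatin) peak lists of LX-2, an immortalised human hepatic stellate cell line. Wild-type LX-2 cells were kept on a hydrogel of 2 kPa (soft) or 40 kPa (stiff) for 2 days (D2) or 4 days (D4), which gave 4 groups (soft and stiff on D2, soft and stiff on D4) of 2 replicate libraries each. All groups shared the line and the genotype, and 1 line without other liver cells limits what the culture models. The labels did not say whether replicates came from separate cultures. The study's methods state at least 2 biological replicates for its sequencing, but do not describe the cultures behind each ATAC-seq library. The p-values measure the spread between these libraries, whatever its source.

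AP-1 is a dimer of basic leucine zipper (bZIP) proteins. JUN proteins pair with each other or with FOS proteins, which cannot form stable dimers among themselves, and the dimers bind TGAGTCA, while pairs with ATF proteins favour the cyclic AMP response element (CRE) TGACGTCA. Many of these genes are immediate early genes that respond within minutes to growth factors, stress and mechanical stretch, and stellate cells are the liver pericytes that turn into matrix-producing myofibroblasts when the liver is injured.

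The lists differed in depth. They held 29789 to 72840 peaks, and D2 soft replicate 1 had the shortest list, with an estimated 0.78 fragments per kb of genome against 2.08 to 3.15 in the other libraries. Within each day both stiff libraries were deeper than both soft libraries (D2 stiff 2.32 and 2.19, D2 soft 0.78 and 2.08, D4 stiff 3.15 and 2.87, D4 soft 2.69 and 2.72). LX-2 chromatin was checked against its markers by counting libraries with a peak within 1 kb of a start. Of 10 stellate cell and myofibroblast markers, 6 had such a peak in every library, COL1A2 in 7, LRAT in 1, and DES and LUM in 0. Of hepatocyte markers, ALB and APOA1 had one in 0 libraries, SERPINA1 in 1, and TTR and CYP3A4 in 2. Of immune markers, PTPRC, CD3E and SPI1 had one in 0, and CD14 and CD68 in 8. Of endothelial markers, VWF had one in 0, CDH5 in 4 and KDR in 7, and of biliary markers, KRT19 in 0, EPCAM in 6, SOX9 in 7 and KRT7 in 8.

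The sequences that carried the results are shown first, read from the GRCh37 (hg19) genome, 5′ to 3′. In them, capitals mark letters of the AP-1 word (TGAGTCA or its complement TGACTCA), of the CRE or of TGACATCA, the 8-letter AP-1 variant known from the JUN promoter. Each was searched on both strands, and a match is a description of letters, not evidence of a bound factor. The bases before the start of the 3 JUN family genes are given because the JUNB start differed between soft and stiff libraries while the JUN start was covered in all 8. They lie at chr1:59249720-59249919 (JUN, minus strand), chr19:12902100-12902299 (JUNB, plus strand) and chr19:18392433-18392632 (JUND, minus strand). None of the 3 words was found in the JUNB stretch.
JUN: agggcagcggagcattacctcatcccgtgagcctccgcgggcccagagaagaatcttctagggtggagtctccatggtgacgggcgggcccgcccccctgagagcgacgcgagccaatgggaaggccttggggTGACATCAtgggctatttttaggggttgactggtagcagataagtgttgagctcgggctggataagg
JUNB: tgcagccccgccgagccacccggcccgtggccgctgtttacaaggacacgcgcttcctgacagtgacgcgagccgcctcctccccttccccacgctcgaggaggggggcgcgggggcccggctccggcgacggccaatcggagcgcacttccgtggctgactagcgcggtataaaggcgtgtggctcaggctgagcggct
JUND: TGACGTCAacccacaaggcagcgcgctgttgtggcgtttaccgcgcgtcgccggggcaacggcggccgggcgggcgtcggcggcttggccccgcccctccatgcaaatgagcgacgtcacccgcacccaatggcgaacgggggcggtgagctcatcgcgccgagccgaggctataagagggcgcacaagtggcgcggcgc

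Around the starts of FOSL1, FOSL2 and MAFF, 11 bases on each side of a match are given, on the strand of the gene, because these genes carried the AP-1 word or the CRE where their peaks were. They lie at chr11:65667843-65667871 (FOSL1, minus strand), chr2:28615718-28615746 (FOSL2, plus strand) and chr22:38597936-38597965 (MAFF, plus strand).
FOSL1: cacggcgcgggTGAGTCAgaacccagcag
FOSL2: tgccattgtagTGACTCAtctcgggcaga
MAFF: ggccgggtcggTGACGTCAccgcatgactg

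The distal sites of highest fold enrichment are given as 121 bases centred on the summit, on the plus strand. For JUN these were chr1:59221238-59221358 (+28421 bp from the start, with none of the 3 words), chr1:59193210-59193330 (+56449 bp) and chr1:59289208-59289328 (−39549 bp, with 2 AP-1 words). For FOSL1 it was chr11:65708901-65709021 (−41102 bp).
JUN +28421: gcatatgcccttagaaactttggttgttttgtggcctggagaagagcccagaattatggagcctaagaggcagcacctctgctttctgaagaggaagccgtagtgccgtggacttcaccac
JUN +56449: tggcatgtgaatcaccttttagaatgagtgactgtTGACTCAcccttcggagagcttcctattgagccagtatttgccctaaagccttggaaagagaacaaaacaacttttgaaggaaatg
JUN −39549: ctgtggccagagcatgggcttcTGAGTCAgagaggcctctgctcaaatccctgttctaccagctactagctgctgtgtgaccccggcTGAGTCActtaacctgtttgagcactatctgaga
FOSL1 −41102: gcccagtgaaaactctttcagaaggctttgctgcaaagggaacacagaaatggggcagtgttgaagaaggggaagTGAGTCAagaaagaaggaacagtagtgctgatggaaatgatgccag

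At the promoters, 8 of the 10 genes had a peak within 1 kb of an annotated start in every library, compared with 47.6% of coding genes (9580 of 20136). The exceptions were JUNB, with such a peak in 5 libraries, and JUND, with one in 7. With every list shortened to the length of the shortest, 4 genes had a promoter peak in all 8. When the single start base of the main transcript was asked for, 6 of the 10 genes were covered in every library (JUN, FOS, FOSL1, FOSL2, ATF3 and MAFF), compared with 30.3% of coding genes. JUNB was 1 of 49 genes of 19856 (0.247%) whose start base was covered in all 4 stiff and in 0 soft libraries.

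**Figure D1:**
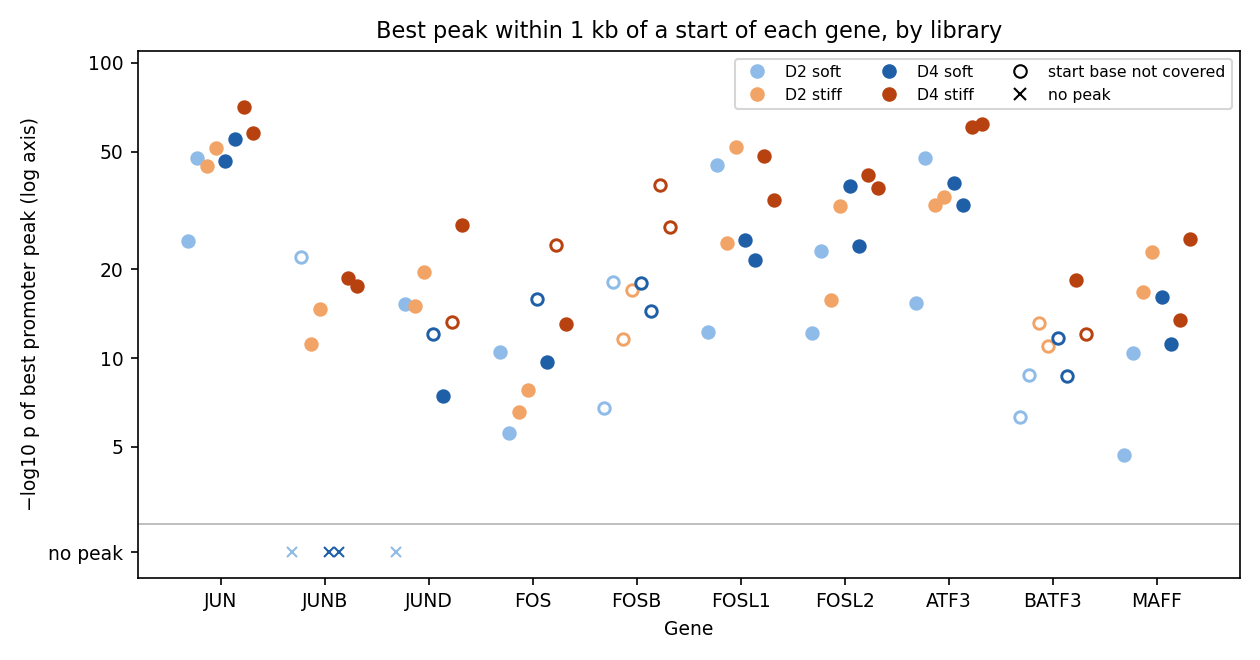
The −log10 p (log axis) of the best peak within 1 kb of a start is plotted for each of the 10 genes, with 1 point per library coloured by group, open where the peak does not cover the start base of the main transcript, and a cross where there was no peak. JUN sits between 24.9 and 71.0 in all 8 libraries, while JUNB has crosses for 3 of the 4 soft libraries and an open point at 22.0 for the other.

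Among the JUN family, JUN, the prototype of the family, had its start at chr1:59249719 (minus strand). Its promoter peak was open in every library, with fold enrichment over the local background of 7.19, 8.88 (D2), 7.92 and 9.04 (D4) in the soft libraries against 9.73, 8.81 (D2), 7.48 and 8.43 (D4) in the stiff libraries. The ranges of the soft and stiff libraries overlapped. Here and below, fold enrichment of different lists is set side by side as a description, since the lists do not share one scale. The 7.19 of D2 soft replicate 1 stood in the top 33.6% of its list, and the 7.92 of D4 soft replicate 1 in the top 41.2%. By −log10 p the peak stood in the top 0.919% to 4.53% of each list, and in the top 24.5% to 52.0% by fold enrichment. By −log10 p it was the highest of the 10 promoters in 6 of the 8 lists, and was passed by FOSL1 in D2 stiff replicate 2 and by ATF3 in D4 stiff replicate 2. Summits lay −131 to −207 bp from the start, upstream of the TGACATCA at −67.

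JUNB encodes a JUN protein of weaker activity that can oppose JUN at some targets. Its start base at chr19:12902300 (plus strand) lay within a consensus site at chr19:12902135-12902674 that overlapped the exon of JUNB and had peaks in 4 stiff and 0 soft libraries. Fold enrichment there was 5.2 and 4.91 in D2 stiff and 4.46 and 5.13 in D4 stiff. The −log10 p was 11.2 and 14.7 in D2 stiff, and 18.7 and 17.5 in D4 stiff. The recovered summit pileups, the number of fragments stacked at the summit, were 21 (95% exact Poisson interval 13.0 to 32.1), 33 (22.7 to 46.3), 50 (37.1 to 65.9) and 39 (27.7 to 53.3), and these intervals cover counting error only. The groups thus did not overlap in presence at the JUNB start, a pattern of 0.85% of all consensus sites, whereas the neighbouring elements were shared by both matrices. D2 soft replicate 1 had 0 peaks in the whole JUNB window, so that its lack of a peak was not particular to the start.

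The upstream JUNB element at chr19:12900681-12901358, with its summit at −1206 bp in an intron of HOOK2, had a peak in 7 libraries. Its fold enrichment was 6.33 (D2 replicate 2), 5.85 and 4.94 (D4) on the soft matrix, and 5.87 and 6.83 (D2) and 6.42 and 6.56 (D4) on the stiff matrix, and it was absent from the list of D2 soft replicate 1. In D2 soft replicate 2 its end, −942 bp from the start, fell within 1 kb, which is why that library counted as having a JUNB promoter peak. A further element at +2486 bp, past the end of the gene, had peaks in 5 libraries of both matrices, with fold enrichment up to 4.67.

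**Figure D2:**
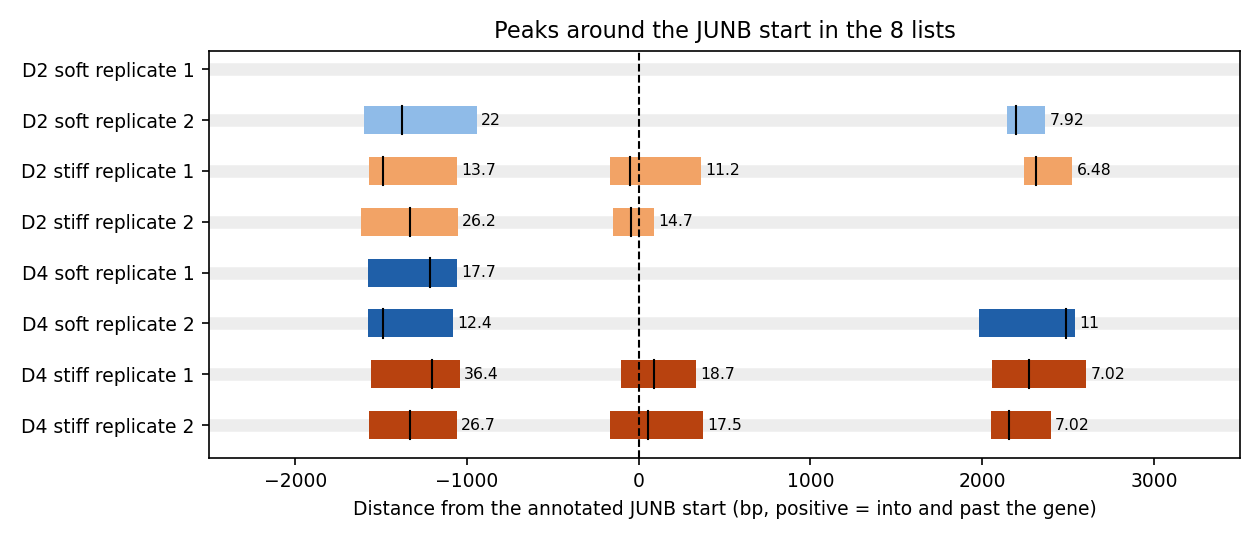
Peaks of the 8 lists around the JUNB start are drawn as boxes on the distance from the start in bp, with the summit as a vertical line and the −log10 p beside each box. The element near −1206 bp is present in 7 rows, and the boxes over the start (11.2 to 18.7) are in the 4 stiff rows.

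Among the 642 consensus sites with peaks in all 4 stiff and 0 soft libraries, 87.5% had a lowest −log10 p below the 11.2 of JUNB (median of the 642 sites 6.77). These sites were picked by the same stiff lists, so that this place describes peak strength and is no evidence of a difference. Both stiff libraries of each day were deeper than both soft libraries of that day, so that within a day depth and matrix cannot be told apart. Across days, estimated fragments per kb were 2.69 and 2.72 in D4 soft and 2.32 and 2.19 in D2 stiff. The list lengths of these groups overlapped (63272 and 56362 peaks in D4 soft, 59277 and 63684 in D2 stiff). When every list was shortened to its best 29789 peaks, the length of the shortest list, 1 of the 4 JUNB start peaks remained (D4 stiff replicate 1, rank 29188), since the others ranked down to 33419. The part of depth in this difference was not tested further.

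JUND, which unlike its relatives is broadly expressed in resting cells, had its start at chr19:18392432 (minus strand). A peak within 1 kb was present in 7 libraries, with fold enrichment of 6.38 (D2 replicate 2), 5.45 and 4.12 (D4) on the soft matrix, and 6.71 and 6.73 (D2) and 4.66 and 8.05 (D4) on the stiff matrix. The soft and stiff values overlapped, and D2 soft replicate 1 had no peak. The start base itself was covered in 5 libraries, 3 stiff and 2 soft. The CRE letters began at −200, and the summits lay −78 to −203 bp from the start. A further JUND site had peaks in 3 stiff and 0 soft libraries. Fold enrichment was 3.58 in D2 stiff replicate 1 (summit +1155 bp), and 3.55 (+1978 bp) and 3.39 (+1160 bp) in D4 stiff. The summits were thus not all at one place, and the peaks stood low in their lists (top 97.8%, 96.9% and 97.4% by fold enrichment). Peaks in both D4 stiff and neither D4 soft library were found at 6.72% of all consensus sites.

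Among the FOS family, FOS, the classical immediate early gene, had its start at chr14:75745531 (plus strand) covered in every library. The peak over the start was weak, with −log10 p of 10.5 and 5.57 (D2) and 7.95 and 9.66 (D4) on the soft matrix, and 6.59 and 7.82 (D2) and 22.5 (D4 replicate 1) on the stiff matrix. In D4 stiff replicate 2 the start lay in a peak of 2245 bp whose summit was at −1652 bp, so that its values (−log10 p 13.0, fold enrichment 5.51) were those of the upstream element and not of the start. Fold enrichment at the other start summits was 6.24, 3.68, 4.4 and 5.14 in the soft and 4.44, 4.49 and 6.51 in the stiff libraries (D2 first), and these ranges overlapped. The consensus site reached from chr14:75743656 to chr14:75746217 and joined the start to an upstream element with its summit at −1568 bp.

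FOSB, a close relative of FOS, had its start at chr19:45971254 (plus strand), and its best promoter peak lay inside the gene in every library, with summits at +1284 to +1908 bp. In D2 soft replicate 1 (summit +1908 bp) this peak began at chr19:45973002 and did not reach back to +1308 bp, the summit in D4 stiff replicate 1. Fold enrichment of the best peak was 4.89, 6.71 (D2), 6.85 and 6.18 (D4) in the soft libraries against 6.01, 6.63 (D2), 7.9 and 7.39 (D4) in the stiff libraries. By rank the D4 libraries overlapped (top 54.0% and 58.4% of the soft lists, top 47.2% and 54.6% of the stiff lists). The site at the FOSB start itself (−270 bp) was weaker and had peaks in 4 libraries, with fold enrichment of 2.84 in D2 stiff replicate 2, 2.77 in D4 soft replicate 2, and 2.53 and 3.87 in D4 stiff. The start base was covered in 2 of these, D2 stiff replicate 2 and D4 stiff replicate 2, and the peaks of D4 soft replicate 2 and D4 stiff replicate 1 both ended at chr19:45971250, just short of it.

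FOSL1 and FOSL2 encode FRA1 and FRA2, FOS proteins without the strong activation domain of FOS. The FOSL1 promoter peak (start chr11:65667859, minus strand) had fold enrichment of 4.94 and 7.83 (D2) and 5.66 and 5.43 (D4) on the soft matrix, and 6.21 and 7.83 (D2) and 5.6 and 5.66 (D4) on the stiff matrix. Its −log10 p ranged from 12.3 to 51.8, and the soft and stiff values overlapped by either measure. The FOSL2 promoter peak (start chr2:28615725, plus strand) had fold enrichment of 5.52, 5.87 (D2), 7.91 and 6.56 (D4) in the soft libraries against 5.69, 6.99 (D2), 6.05 and 6.49 (D4) in the stiff libraries. In both genes an AP-1 word overlapped or adjoined the start, beginning at −1 in FOSL1 and at +5 in FOSL2, and 3.57% of 19856 coding promoters (250 bp before to 50 bp after the start) held this word.

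Of the dimer partners, ATF3, a stress-induced factor that often acts as a repressor, had the highest fold enrichment of the 10 promoters. At its start at chr1:212782103 (plus strand) fold enrichment was 7.97 and 11.5 (D2) and 10.2 and 9.74 (D4) on the soft matrix, and 10.2 and 10.1 (D2) and 9.96 and 11.8 (D4) on the stiff matrix. The values of the 2 matrices overlapped, and the peak stood in the top 13.8% to 28.4% of each list by fold enrichment.

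BATF3, a small bZIP protein known from dendritic cell development, has its start at chr1:212873182 (minus strand). Its promoter site was found in every library, with fold enrichment of 4.83, 5.2 (D2), 6.26 and 5.18 (D4) in the soft libraries against 7.09, 6.11 (D2), 6.44 and 5.85 (D4) in the stiff libraries. The D2 stiff values were above the D2 soft values and the D4 values overlapped, but these values were not all of one element. Their summits lay at +460 bp in D2 stiff replicate 1, at +457 bp in D4 stiff replicate 2, and at −647 to −886 bp in the other libraries. The upstream peak of D2 stiff replicate 1 (summit −240 bp) had fold enrichment of 4.69, below both D2 soft values. The site is broad (chr1:212872483-212874661), and the start base was covered in D4 stiff replicate 1 alone, where the summit lay at −647 bp.

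MAFF, a small MAF protein that pairs with CNC factors such as NFE2L2, had the promoter that varied most in fold enrichment, 3.8 to 8.7 (start chr22:38598001, plus strand). Fold enrichment was 3.8 and 5.18 (soft) against 7.91 and 8.7 (stiff) on D2, and 7.26 and 5.79 (soft) against 4.84 and 7.74 (stiff) on D4. On day 2 the stiff libraries were higher in both replicates, and on day 4 the groups overlapped. The 4.84 of D4 stiff replicate 1 came from a peak of 1753 bp with its summit at +716 bp. The other summits lay at −75 to +45 bp, so that the day 4 values did not all come from one element. The CRE letters began at −54. The rank of this site is tested together with the other sites further on. A second MAFF promoter site at +2126 bp was found in 5 libraries, 2 stiff and 3 soft.

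The windows were rich in sites. A median coding gene had 3.95 consensus sites per 100 kb of window, against 5.8 for FOS, the lowest of the 10, and 14.7 for JUNB, the highest (percentiles 74.1 and 99.9 among coding genes). Of the 105 sites, 15 were promoter sites of the 10 genes, 36 lay at starts of other genes and 54 were distal, that is, more than 1 kb from any annotated start. Median GC content was 62.7% (48.3% over all consensus sites), and 55.7% in the distal sites (45.8% over all distal sites). The windows of JUNB, FOSL1 and FOSB (14.7, 13.8 and 13.1 sites per 100 kb) lie among many other genes, and 8 of 15, 8 of 15 and 7 of 14 sites were promoters of those genes.

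In all, 43 of the 105 sites (41.0%) had a peak in every library, compared with 32.1% of all consensus sites. FOSL1 had 11 such sites of 15 and FOSB 8 of 14. JUNB had 0 of 15, and was the only one of the 10 windows without a site common to all 8 lists. The list of D2 soft replicate 1 held 0 peaks in the JUNB window, which by itself sets that count to 0. A further 16 sites (15.2%, and 15.0% over all sites) were missing from D2 soft replicate 1 alone.

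**Figure D3:**
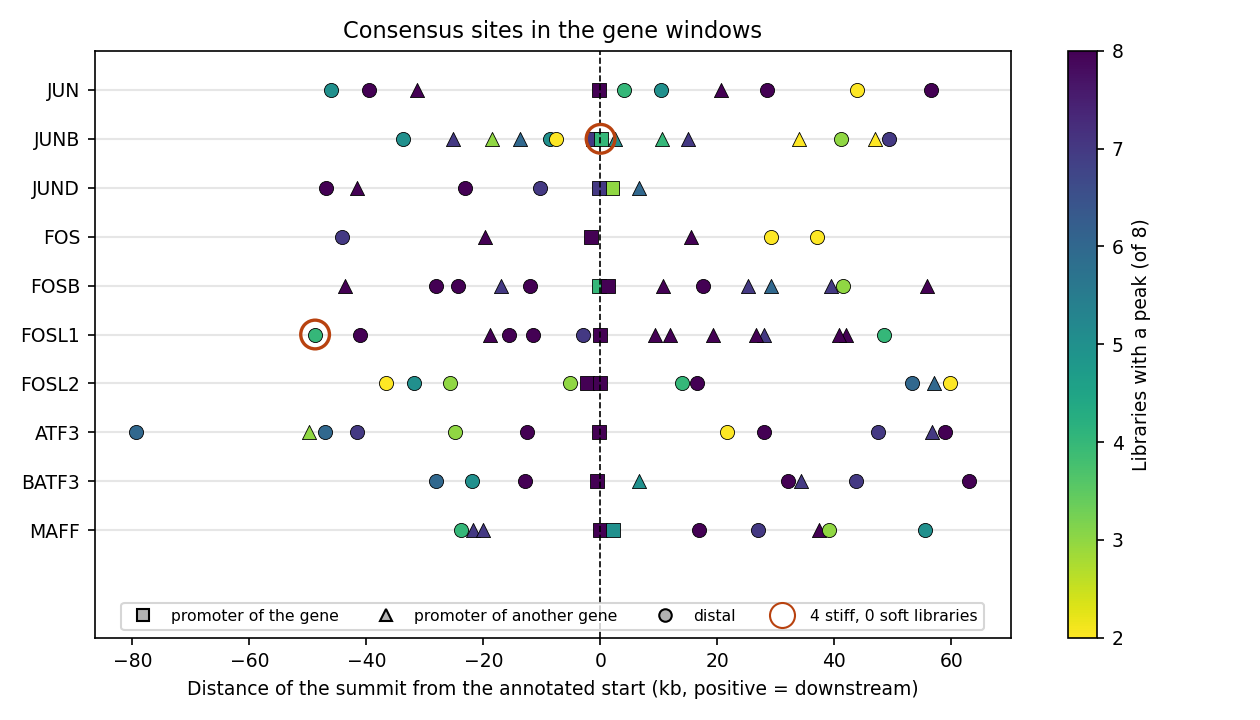
Every consensus site in the 10 windows is plotted by the distance of its summit from the start of the gene in kb, with marker shape for its kind and colour for the number of libraries with a peak (2 to 8). The 2 circled sites, at the JUNB start and −48752 bp from FOSL1, had peaks in 4 stiff and 0 soft libraries.

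The strongest distal sites belonged to JUN and FOSL1. The site +28421 bp from JUN, in an intron of a long non-coding RNA, had fold enrichment of 12.1 and 15.4 (D2) and 14.2 and 12.4 (D4) on the soft matrix, and 14.6 and 18.7 (D2) and 14.3 and 15 (D4) on the stiff matrix, and stood in the top 0.159% to 4.7% of each list by fold enrichment. The site at +56449 bp had 7.99, 13.7 (D2), 14.1 and 12 (D4) in the soft libraries against 15.6, 17.6 (D2), 15.2 and 13.7 (D4) in the stiff libraries. The site at −39549 bp, in an intron of LINC01135, had 13.3 and 12.7 (D2) and 17.8 and 12.3 (D4) on the soft matrix, and 13.7 and 13 (D2) and 15.1 and 15.9 (D4) on the stiff matrix. All 3 exceeded the JUN promoter itself in fold enrichment in every library, and soft and stiff ranges overlapped at each over both days.

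The intergenic site −41102 bp from FOSL1 had fold enrichment of 8.43, 15.4 (D2), 11.5 and 11.3 (D4) in the soft libraries against 15.2, 15.1 (D2), 15 and 15.5 (D4) in the stiff libraries. On day 4 both stiff values were above both soft values, and on day 2 the groups overlapped. For the other genes the best distal sites found in every library were at −46963 bp from JUND (5.49 to 13.9), +17518 bp from FOSB in an exon of RTN2 (5.74 to 12.1), +16455 bp from FOSL2 in its own intron (6.3 to 8.49), +28030 bp from ATF3 (7.38 to 16.5), −12851 bp from BATF3 (10.5 to 14.7) and +16850 bp from MAFF (4.58 to 9.15). FOS had 3 distal sites and JUNB had 5, with 0 of them in every library.

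A further question was which sites were found on one matrix alone. A site was counted for one group alone where both replicate lists held it and both lists of the other group lacked it, and these counts are given without a test. On day 2, 12 of the 105 sites (11.4%) were found in D2 stiff alone and 1 in D2 soft alone, compared with 7.45% and 0.391% of all consensus sites. On day 4, 10 sites (9.52%) were found in D4 stiff alone and 0 in D4 soft alone, compared with 6.72% and 1.31%. The excess of stiff over soft was thus a feature of all consensus sites as well as of these windows, and the soft libraries of day 2 included the shallowest library. With lists of equal length the counts of stiff alone were 1 on day 2 and 3 on day 4. Without D2 soft replicate 2 the day 2 count was 37, and without D4 soft replicate 1 the day 4 count was 17. The count of 37 rested on D2 soft replicate 1 alone, which held 38.3% of all consensus sites and 44.8% of the window sites. Shares of all consensus sites under these settings were not counted, so that these counts describe the settings and not the windows.

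Over both days, 2 sites had peaks in 4 stiff and 0 soft libraries (0.85% of all sites did) and 0 had the reverse (0.0172% of all sites). With 1 library left out the count of 2 rose to at most 5 (without D4 soft replicate 1), and with lists of equal length it was 0. The matching shares of all sites were not counted. One was the JUNB start. The other was the site −48752 bp from FOSL1 in an intron of TSGA10IP, with fold enrichment of 7.39 and 7.32 in D2 stiff and 8.28 and 8.81 in D4 stiff, and −log10 p of 11.4, 11.9, 18.9 and 16.8. Of 5 stretches of 36 bases taken from this FOSL1 site, 4 occurred once in the genome, and the highest number of copies was 3. At the JUNB start 5 of 5 occurred once. Its lowest −log10 p, 11.4, was above that of 88.6% of the 642 sites with this pattern, which again describes strength in the lists that picked the sites. With lists of equal length 1 of its 4 peaks remained, as at JUNB.

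Among the sites of D2 stiff alone, the one of best mean place by −log10 p was the start of IQCN, +6620 bp from JUND (top 47.6% on average, and 54.2% by fold enrichment), where fold enrichment was 6.67 and 9.44 in D2 stiff. This site was also found in both D4 soft libraries (6.48 and 7.7) and both D4 stiff libraries (5.82 and 6.6), so that the absence was from the D2 soft lists alone. Among those of D4 stiff alone, the best by either measure lay −45993 bp from JUN, with 9.73 and 10.9 in D4 stiff, 9.98 and 10.3 in D2 stiff and 10.1 in D2 soft replicate 2. The site of D2 soft alone lay −36564 bp from FOSL2, with fold enrichment of 3.42 and 5.22 in D2 soft and no peak in any other list. By gene, the sites of stiff alone on either day were spread over the windows of JUN, JUNB, JUND, FOS, FOSL1, FOSL2, ATF3 and BATF3, and the windows of FOSB and MAFF had 0.

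Between the days, 6 sites were found in D4 soft but not D2 soft (5.79% of all sites were) and 1 in D2 soft but not D4 soft (0.403%). On the stiff matrix, 3 sites were found on day 4 alone (5.35%) and 5 on day 2 alone (1.41%). The 3 stiff sites of day 4 were +43966 bp from JUN (5.49 and 4.33), +48511 bp from FOSL1 (3.73 and 3.97) and +36964 bp from FOS (4.39 and 4.33). The FOSL1 site also had peaks in both D4 soft libraries (4.07 and 4.21) and in 0 D2 libraries, so that it marked the day on both matrices. Of the 5 stiff sites of day 2, ATF3 had 2 (+21592 and −24862 bp), JUNB 2 (−18518 and +41103 bp) and FOSB 1 (+41447 bp).

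**Figure D4:**
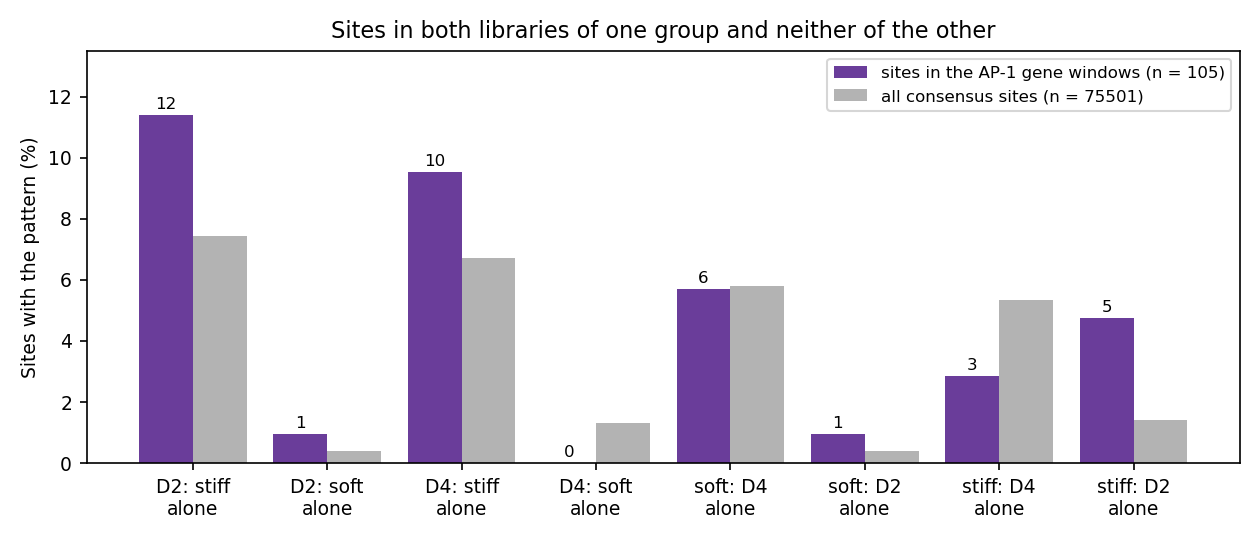
Bars show the share (%) of the 105 window sites and of all 75501 consensus sites with a peak in both libraries of one group and in neither library of the other, and the count of window sites stands above each pair. D2 stiff alone (12 sites) and D4 stiff alone (10 sites) are the tallest pairs, and D4 soft alone has 0.

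Peak heights were compared on ranks where all 8 lists held the site (43 sites). Within each list, fold enrichment was ordered across the 24246 such sites of the series, the places were turned into normal scores, and limma was fitted to them, so that an effect is a difference of scores, stiff minus soft, in SD units of all sites. No site of the windows passed an adjusted p of 0.05 on day 2, on day 4 or over both days, compared with 0.00412%, 0.00825% and 0.00825% of all sites. At an unadjusted p under 0.05, 7 sites passed on day 2, 1 on day 4 and 2 over both days (7.65%, 5.35% and 7.72% of all sites). The lowest limma adjusted p was 0.492 on day 2, 0.92 on day 4 and 0.604 over both days. Between the days the lowest was 0.594 on the soft matrix and 0.925 on the stiff matrix.

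JUNB and JUND had no promoter site in every library, and among those of the other 8 genes MAFF had the largest day 2 effect. It was 1.38 ± 0.496 (SE) on day 2 (limma, unadjusted p = 0.00934, limma adjusted p = 0.529) and −0.564 ± 0.496 on day 4 (limma adjusted p = 0.952), and the day 2 and day 4 effects did not differ after adjustment (interaction −1.95, limma adjusted p = 0.92). The MAFF value of D4 stiff replicate 1 was that of the summit at +716 bp. For the other promoter sites found in every library, the day 2 effects ran from −0.819 at FOS to 0.195 at BATF3. Each list entered with its strongest peak in the merged site. At FOS this was the start peak in D2 soft replicate 1 (fold enrichment 6.24) and another peak of the site in D2 soft replicate 2 (6.76) and D2 stiff (7.26 and 5.02). The BATF3 summits lay on both sides of the start, so that neither effect compares 1 element. The JUN promoter had −0.216 ± 0.488 on day 2 and −0.661 ± 0.488 on day 4. Effects of this size could not be told from the spread between replicates.

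Of distal sites, the largest day 2 effects in the stiff direction were 1.26 ± 0.514 at +28030 bp from ATF3 (limma adjusted p = 0.571) and 1.14 ± 0.501 at +56449 bp from JUN (limma adjusted p = 0.598). On day 4 they were 0.0453 and 0.147. In the soft direction they were −1.1 ± 0.498 at +58912 bp from ATF3 (limma adjusted p = 0.622) and −1.04 ± 0.483 at +16455 bp from FOSL2, in its own intron (limma adjusted p = 0.627), and on day 4 both were above 0 (0.405 and 0.129). The largest of all was at the start shared by DRAP1 and C11orf68 in the FOSL1 window (−18937 bp), with 1.68 ± 0.526 on day 2 and fold enrichment of 2.71 and 3.91 in D2 soft and 5.77 and 5.53 in D2 stiff (limma adjusted p = 0.492). Without D2 soft replicate 2 this site was called (2.43 ± 0.558, limma adjusted p = 0.0314), in a fit that called 1.2% of all sites and rested on the shallowest library for D2 soft.

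In direction, 15 of the 43 sites had a higher rank in stiff libraries on day 2 and 28 a lower rank (median effect −0.286, and −0.0235 over all sites). On day 4 the counts were 19 and 24 (median −0.184, and −0.0215 over all sites). With ranks of −log10 p in place of fold enrichment, 17 were higher on day 2 (median −0.156) and 24 on day 4 (median 0.146), so that the direction on day 4 turned with the measure. No site had its 4 stiff ranks above its 4 soft ranks (1.87% of all sites did), and 3 had the reverse (2.12%). These 3 were +20668 bp from JUN, the FIBP start +11935 bp from FOSL1 and the distal site −11420 bp from FOSL1, with effects over both days of −0.453, −0.33 and −0.272 (limma adjusted p = 0.782, 0.846 and 0.878). Without D2 stiff replicate 1 the effect at +20668 bp from JUN was −0.0639.

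**Figure D5:**
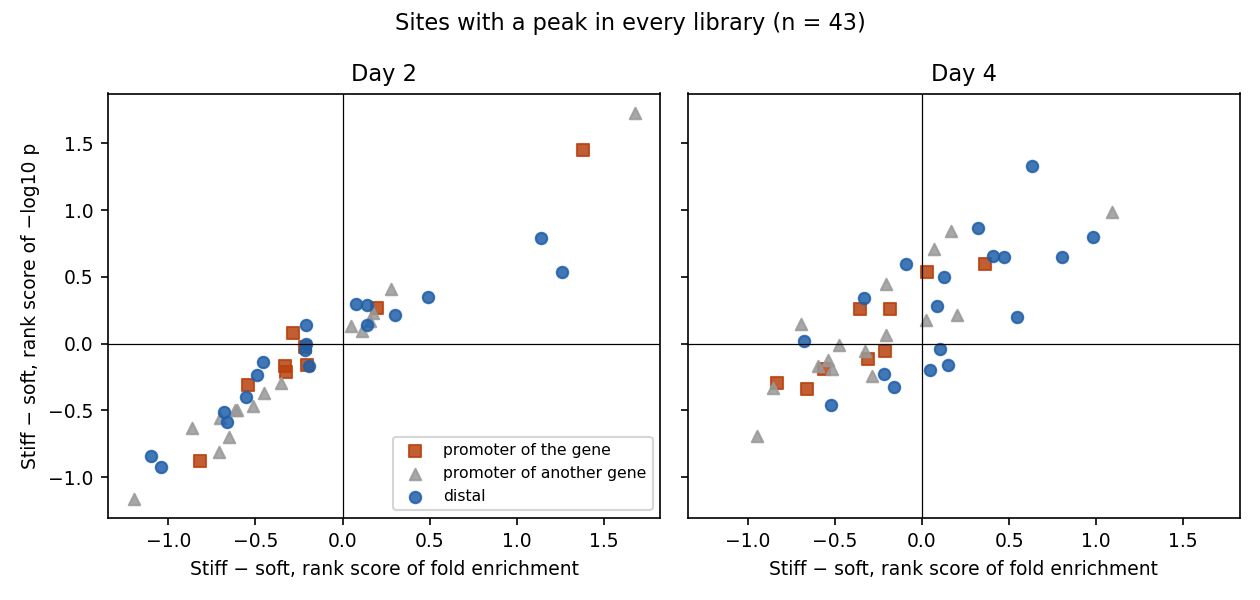
Stiff minus soft effects on day 2 and day 4 are plotted for the 43 sites, by the rank score of fold enrichment (horizontal axis) and of −log10 p (vertical axis). On day 2, 41 of 43 sites have the same sign by both measures, and on day 4, 32 of 43 have.

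Sequence words were counted within 100 bp of the summit of each site. The AP-1 word occurred in 24 of the 105 sites (22.9%) and in 30.2% of all consensus sites. Among distal sites the shares were 29.6% and 36.5%. Of the 18 distal window sites found in every library 6 held it (33.3%), and of the 36 found in fewer libraries 10 did (27.8%). Over all distal sites of the series these shares were 41.4% and 34.8%. By gene, FOSL1, ATF3 and MAFF had 3 distal sites with the word each, JUN and BATF3 had 2 each, and JUNB had 0. The GC box (GGGCGG) occurred in 34.3% of sites against 16.2% of all sites, and the TEAD word (GGAATG) in 10.5% against 19.1%. Among distal sites alone the shares were 13.0% against 5.72% for the GC box, and 18.5% against 21.9% for the TEAD word.

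The CRE was found in 4 of the 105 sites (3.81%, and 0.608% of all sites), namely the promoter sites of JUND, FOSB (−270 bp) and MAFF and a site −49728 bp from ATF3. The CArG box, the binding word of serum response factor, was found in 5 sites (4.76%, and 1.15% of all sites), among them the FOSB start site (−270 bp) and the site +15420 bp from FOS. In the 250 bp before and 50 bp after the start, the CRE stood in JUND and MAFF (2.68% of coding promoters), TGACATCA in JUN (2.12%), and the GC box in 8 of the 10 genes (61.5%), all but JUNB and ATF3. The TEAD word and the CArG box were in none of these promoter stretches (11.3% and 1.2% of coding promoters), which says that these letters are absent there and no more.

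The genes that work with AP-1 were read in the same way. Across coding genes 47.6% had a promoter peak in every library, a share that applies to both lists here. Of 22 other bZIP genes, 16 had a promoter peak in every library. ATF4, ATF6, BACH2 and JDP2 lacked one in D2 soft replicate 1 alone, MAF had one in 5 libraries and BATF in 0, the last named after its value was seen. Of 20 kinases, phosphatases and factors upstream of AP-1, 12 had a peak in every library, and among the others DUSP1, DUSP5, MAP2K2, MAP2K4 and MAPK3 lacked one in D2 soft replicate 1 alone. Neither list had a promoter site called between stiff and soft libraries (0 of 17 sites, lowest limma adjusted p = 0.571, and 0 of 11 sites, lowest 0.736). In the whole series the fit called 1 of 24246 sites on day 2, 2 on day 4 and 2 over both days. The absence of calls is thus shared by nearly all sites and is no result about these genes.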

How the data were processed

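ATAC-seq of LX-2 cells was analysed from 8 deposited narrowPeak lists. Per the study's methods and the submitters' processing notes, the authors trimmed reads with TrimGalore, mapped them with Bowtie2 (2.4.1) to hg19 and called peaks in each library separately with MACS2, at a q of up to 0.05. bedtools (2.24.0) and Picard were also named. The MACS2 version and options, read filters and Tn5 offset were not given in the sources used here.

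Fold enrichment, as deposited by the authors, relates the summit pileup to the local background as a ratio. The −log10 p and −log10 q values deposited by the authors come from the same test against that background. The score deposited by the authors was not used, and the other deposited value, the summit distance from the peak start, placed each summit. Values are comparable within one list, so ranks were used for the tests, and fold enrichment printed side by side across lists is a description. No count model was fitted and the authors' read-level comparison was not used here.

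Summit pileups and depth were recovered under the MACS2 model, which fitted 100% of peaks within 0.001 in −log10 p, and the depth serves only to compare libraries. Genes came from GENCODE 44 on GRCh37, and a promoter peak overlapped 1 kb either side of any start. Rank scores were fitted with limma 3.58.1 (R 4.3.3) with 4 group means and Benjamini-Hochberg adjustment over 24246 sites. The fit was first run on simulated data with set spreads and changes on day 4 alone, which does not measure its power on these lists. Python 3.11.15, numpy 2.4.6, pandas 2.3.3, scipy 1.17.1 and matplotlib 3.10.9 were used. The genes and lists were chosen with earlier results of these data known. Sites were named by rule: promoter sites of the 10 genes, the best distal site of each, sites of one matrix or day alone (up to 3 of a class, best mean rank first), and called sites, with partner genes in 1 to 7 libraries (up to 6 of a list), of which 1 gene, and the sequence of 1 distal site, are not reported here. Other named sites, among them those of largest effect and the further distal sites of JUN, were chosen after their values were seen. Alternatives changed list length, q (0.01), summit overlap, promoter window (500 bp, 2 kb), gene window (20 and 100 kb), libraries required, rank measure, scale and design, and left out each library.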

Additional observations from a re-analysis of the deposited data

Results flagged for a closer look

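Of 80 sets of 4 libraries of one matrix, 4 held a library apart from the other 3 by Dixon's test. The sets were promoter values of the genes and peak numbers of the libraries, without the soft sets of JUNB and JUND that had fewer than 4 peaks. In independent sets chance gives 1 in 20. These sets were not independent, since several measures of one peak were each tested, and each set joined both days. The count was thus not weighed against chance. The FOSB promoter peak stood in the top 73.5% of D2 soft replicate 1 by −log10 p, and in the top 33.5% to 39.7% of the other soft lists. The FOSL1 promoter peak stood in the top 47.0% of D2 soft replicate 2 by fold enrichment, against 69.0% to 72.7% in the others. Fold enrichment of the ATF3 promoter was 11.8 in D4 stiff replicate 2, against 9.96 to 10.2 in the others. The FOSL2 promoter stood in the top 36.7% of D2 stiff replicate 1 by −log10 p, against 12.9% to 13.4% in the others.

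The site −12851 bp from BATF3 was lower in both stiff libraries on day 2 (rank effect −0.662) and higher in both on day 4 (0.543). The difference between the days did not pass the test (limma interaction, unadjusted p = 0.0812 and limma adjusted p = 0.92). Such a turn was seen at 5 of the 43 sites (11.6%) and at 5.41% of all sites.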

How the results depend on the processing

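With lists of equal length, 4 genes had a promoter peak in every library (8 as reported), JUNB had one in 2 libraries (5), and the windows held 63 sites (105). Sites of stiff alone then numbered 0 over both days (2), 1 on day 2 (12) and 3 on day 4 (10), and 1 site had its soft ranks above its stiff ranks (3). With 20 kb windows there were 59 sites, 28 in every library (43), 1, 7 and 6 of stiff alone (both days, day 2, day 4) and 0 of soft alone on day 2 (1), which was also 0 at a q of 0.01 and with sites merged from summit windows, an alternative chosen after seeing the data. By ranks of −log10 p, 1 site had its stiff ranks above and 1 its soft ranks above. The cause of these changes beyond fewer peaks or shorter windows was not tested, and the matching shares of all sites were not counted. A narrower promoter window of 500 bp gave 7 genes in every library and JUNB in 4, one of 2 kb gave 8 genes and JUNB in 7, since it took in the upstream element of both matrices, and asking for the start base, also chosen after seeing the data, gave 6 and 4.

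Leaving out each library in turn gave 2 to 5 sites of stiff alone over both days, 12 to 37 on day 2 (37 without D2 soft replicate 2) and 10 to 17 on day 4 (17 without D4 soft replicate 1). For these counts the shares of all consensus sites were not counted. Soft alone ranged from 0 to 2 on day 2 and from 0 to 2 on day 4, and was 0 over both days throughout. Stiff ranks were above at 0 to 2 sites and soft ranks above at 3 to 6. Calls by limma ranged from 0 to 1 on day 2, with 1 without D2 soft replicate 2. Genes with a promoter peak in every library numbered 8 to 9 and JUNB libraries 4 to 5.

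Among named sites, the MAFF day 4 effect ran from −1.15 to 0.0228 and turned without D4 stiff replicate 1. The effects at +11935 and −11420 bp from FOSL1 turned with −log10 p ranks (0.0373 and 0.148), and that at +20668 bp from JUN was −0.0639 (−0.453 as reported) without D2 stiff replicate 1. The replicate numbers did not pair the libraries (6 correlations of −0.0415 to 0.0837), and a replicate block left 0 window sites called in each comparison. In the shallowest library presence was lowest: D2 soft replicate 1 held 44.8% of the window sites, and the other libraries 69.5% to 88.6%.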
